A study of Homo sapiens with 6 samples.

Results

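The transcription factors that give myeloid cells their identity were followed in NB4 cells exposed to maltonis. The 10 genes were chosen by name: the C/EBP genes CEBPA, CEBPB, CEBPD and CEBPE, the PU.1 gene SPI1, and GFI1, RUNX1, MYB, KLF4 and GATA2. All 10 symbols were found among the 23368 in the count tables, and all 10 held enough counts to be among the 13209 genes tested. NB4 cells are a line established from acute promyelocytic leukemia (APL), whose PML/RARα fusion protein holds the cells near the promyelocyte stage of granulocyte development, and maltonis is a synthetic molecule derived from maltol. RNA was sequenced after 24 h in 3 libraries of not treated (n.t.) cells and 3 libraries of cells given 10 µM maltonis, which the study describes as biological triplicates. Both groups are the same line in culture, so the values describe a single leukemia, and while the maltonis stock was made in distilled water, the labels do not say whether the n.t. cells received water.

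In normal bone marrow, PU.1, RUNX1 and C/EBPα open the granulocyte and monocyte program in progenitors, C/EBPε and GFI1 carry granulocytes through their later stages, and KLF4 favors monocytes. MYB and GATA2 belong to immature progenitors and are normally turned down as cells mature. C/EBP proteins bind related DNA sites as dimers, so the balance between family members is a recurrent theme of myeloid differentiation.

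The libraries held 18492154 to 38205483 counts, and 3 counts, taken as the floor of detection, corresponded to 0.0828 to 0.160 CPM (counts scaled to library size by the trimmed mean of M-values, TMM). This floor covers counting error only, and each of the 10 factors held at least 195 counts in every library. A code in the library names sets replicate 1 of each group (called batch A) apart from replicates 2 and 3 (called batch B), and what the code stands for is not stated. The promyelocyte markers fixed by name, 10 of 10 with counts, summed to between 17379 and 19986 CPM in n.t. cells and between 12163 and 12537 CPM after maltonis, mostly from the myeloperoxidase gene MPO. MPO was lower after maltonis, but the list as a whole was mixed. At a false discovery rate below 0.01, 5 of the 10 were higher, 3 lower and 2 not called, with a median log2 fold change of 0.42. Of all genes tested, 31.9% were higher and 32.1% lower. HBA1, HBB, PF4, GP9, MS4A1 and TRAT1 were at 0 in every library, while the 7 mast cell, basophil and eosinophil markers summed to 3056 to 3223 CPM in n.t. and 3606 to 3949 CPM in maltonis-treated cells. PRG2 alone gave a mean of 3010 CPM of that sum in n.t. and 3716 CPM in treated cells, and CPA3 and CLC had at most 3 counts in any library. Since the RNA is from bulk cultures, fewer cells of a kind and less RNA per cell cannot be told apart.

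Maltonis lowered 6 of the 10 factors and raised 1. With edgeR's quasi-likelihood test and a false discovery rate (FDR) below 0.01, MYB, GATA2, CEBPA, CEBPE, SPI1 and CEBPD were lower and KLF4 was higher, while RUNX1, CEBPB and GFI1 did not pass. Of all genes tested, 32.1% were lower, 31.9% higher and 64% called in either direction, so 7 called genes among 10 is close to the share among all genes. The median log2 fold change was −0.61 over the 10 factors and 0.01 over all genes. With a further criterion of a 2.5-fold change, MYB alone remained, and 10.4% of all genes tested were lower by as much. Groups of 3 did not overlap for 8 of the 10 factors, against 76.6% of all genes, with CEBPB and GFI1 as the exceptions.

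**Figure D1:**
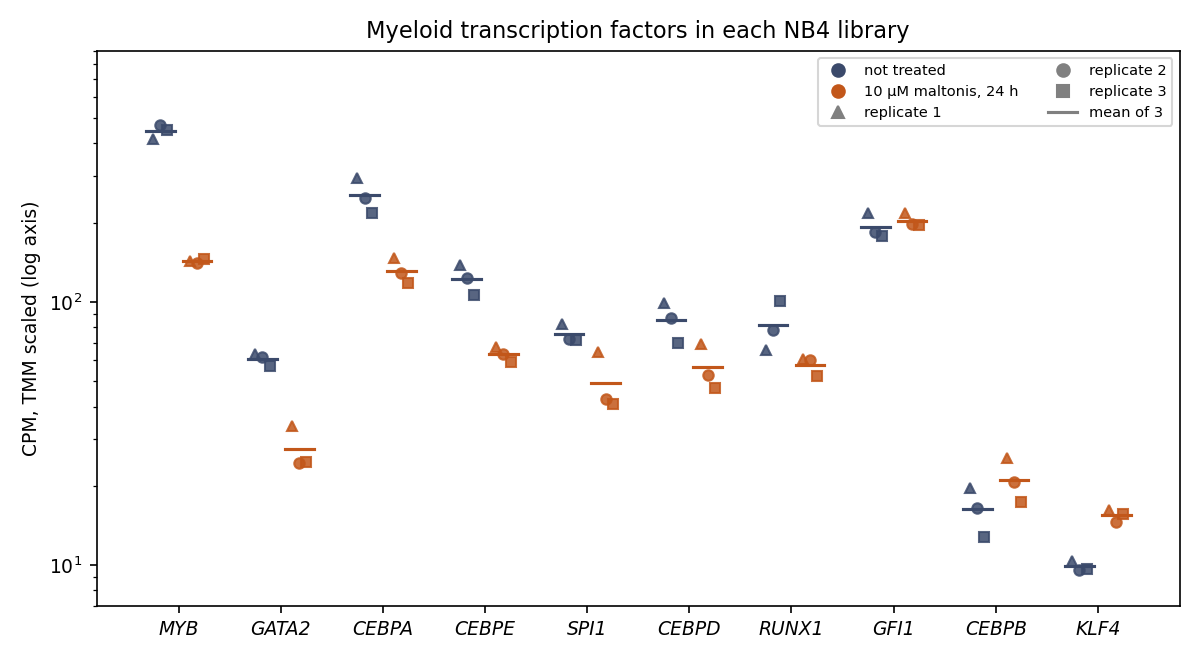
CPM (TMM scaled, log axis) of the 10 factors in each library, with n.t. cells in blue and maltonis-treated cells in orange, the replicate given by the symbol and the mean of 3 by a bar. MYB, GATA2, CEBPA and CEBPE separate widely between the groups, the GFI1 groups overlap between 195 and 217 CPM, and CEBPD libraries nearly touch at 69.5 and 69.4 CPM.

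**Figure D2:**
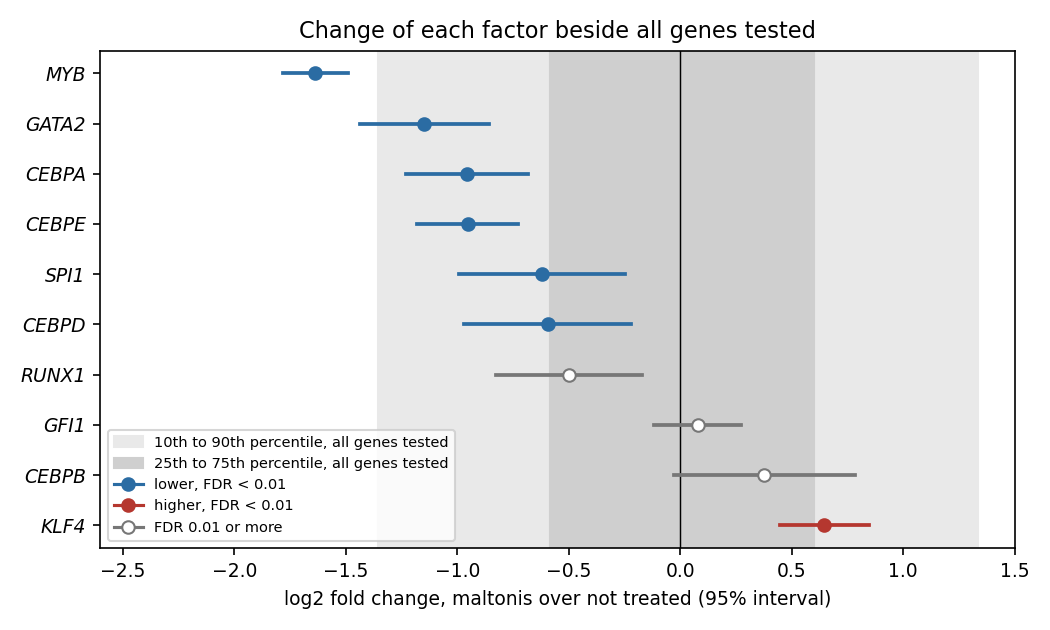
Log2 fold change of each factor with its 95% interval, over the range between the 10th and 90th (light grey) and 25th and 75th percentiles (dark grey) of all 13209 genes tested. MYB, at −1.64, is the only factor outside the light band, and filled points passed an FDR of 0.01.

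Levels can be compared between genes only per length, and were expressed as RPKM with the summed exons of GENCODE 29. In n.t. cells, CEBPA stood highest at 96.6 ± 14.8 RPKM (SD, n = 3), followed by MYB at 80.9 ± 5.12 and CEBPE at 78.8 ± 10.0. The libraries of CEBPA overlapped with those of MYB, and those of MYB with CEBPE, so these neighbours in the order did not differ beyond their spread. GFI1 followed at 58.4 ± 6.39 RPKM, then CEBPD at 39.1 ± 6.74 and SPI1 at 36.5 ± 2.93, which overlapped. GATA2, CEBPB, RUNX1 and KLF4 closed the order at 13.6 ± 0.713, 8.34 ± 1.75, 5.23 ± 1.13 and 2.70 ± 0.122 RPKM. After maltonis GFI1 was the most abundant factor at 61.6 ± 3.58 RPKM (SD, n = 3), above CEBPA at 49.7 ± 5.51, CEBPE at 40.7 ± 2.74 and MYB at 26.0 ± 0.470. MYB, CEBPD and SPI1 then overlapped in sequence, CEBPB had passed above GATA2 (10.8 ± 2.09 against 6.18 ± 1.21 RPKM), and KLF4 above RUNX1 (4.21 ± 0.228 against 3.70 ± 0.315 RPKM). The place of RUNX1 rests on the length chosen: with its longest transcript instead of all exons, its level was 11.2 RPKM in n.t. and 7.93 RPKM in maltonis-treated cells, above KLF4 in both. With that choice MYB stood first in n.t. cells at 121 RPKM, while GFI1 still stood first after maltonis at 71.2 RPKM. Among the 17090 symbols with a length and a count, CEBPA moved from percentile 97.5 to 94.9 and MYB from 96.9 to 88.5.

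CEBPA (chr19:33299934-33302564, minus strand, GRCh38) and CEBPE (chr14:23117304-23119616, minus strand) encode the C/EBP proteins of granulocyte commitment and of late granulocyte maturation. CEBPA was at 296, 249 and 218 CPM in n.t. replicates 1, 2 and 3 and at 146, 129 and 118 CPM in the maltonis-treated ones, so every treated library lay below every n.t. one. Its log2 fold change was −0.96 (SE 0.120), a 1.94-fold decrease, at an adjusted p = 9.83e-05. CEBPE went from 138, 123 and 106 CPM to 67.5, 63.1 and 59.0 CPM, again without overlap. Its log2 fold change of −0.95 (SE 0.0991), at an adjusted p = 3.04e-05, was close to that of CEBPA. For CEBPA, batch A gave a log2 difference of −1.01 and batch B of −0.92, and for CEBPE they gave −1.03 and −0.91.

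Because both genes moved by a similar amount, the 250 bases before their RefSeq starts are shown (GRCh38.p14, sense strand, 5′ to 3′), with matches to sites of the factors studied here in capitals. They lie at chr19:33302535-33302784 and chr14:23119256-23119505. By the gene positions given above, which are from GENCODE, the CEBPE window lies inside the gene and the CEBPA window overlaps its first bases.
CEBPA: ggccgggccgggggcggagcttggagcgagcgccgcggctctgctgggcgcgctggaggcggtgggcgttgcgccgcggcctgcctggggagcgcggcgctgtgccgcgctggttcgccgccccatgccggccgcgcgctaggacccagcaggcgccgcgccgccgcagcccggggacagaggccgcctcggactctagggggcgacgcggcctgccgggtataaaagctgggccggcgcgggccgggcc
CEBPE: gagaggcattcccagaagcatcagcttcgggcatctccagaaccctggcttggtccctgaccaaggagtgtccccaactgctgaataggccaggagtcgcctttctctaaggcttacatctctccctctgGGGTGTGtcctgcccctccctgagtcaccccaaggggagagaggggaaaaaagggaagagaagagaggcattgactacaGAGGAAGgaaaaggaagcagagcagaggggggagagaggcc
Both strands were searched for a C/EBP site spelled TTGCNNAA and for an ETS site, as bound by PU.1 and its relatives, spelled GAGGAAG. The search further took TGTGGT as the letters of a site of RUNX proteins and AACTGNC as those of MYB proteins. For GATA proteins the letters were AGATAA, for the GFI1 repressors they were AATCNNNGC, and for the KLF family they were GGGNGTG. The window of CEBPE held GAGGAAG with its first base at position −41 from the start and a KLF match at −120, while no match was found in that of CEBPA, which is 81.2% G or C. Of 34788 windows of the same length, 11.3% held GAGGAAG and 27.0% the KLF letters, so such matches are common and are given as a description of the letters only.

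CEBPD (chromosome 8, minus strand), a C/EBP gene induced by cytokines and acute-phase signals, was at 98.8, 86.9 and 69.5 CPM in n.t. cells and at 69.4, 52.9 and 46.9 CPM after maltonis. The lowest n.t. library lay only just above the highest treated library. Its log2 fold change was −0.59 (SE 0.163), at an adjusted p = 0.00946, and batch A gave −0.51 and batch B −0.64. The call depended on single libraries: the adjusted p became 0.0170 without n.t. replicate 1, 0.0287 without n.t. replicate 2, 0.0311 without maltonis replicate 2 and 0.0285 without maltonis replicate 3. It was also lost with total counts (0.0276) or the upper quartile (0.0181) as scaling and with a filter of 1 CPM in 3 libraries (0.0120).

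CEBPB (chr20:50190734-50192689, plus strand), whose product drives granulocyte production under stress and takes part in monocyte and macrophage gene expression, did not follow its paralogs. Its counts gave 19.7, 16.4 and 12.8 CPM in n.t. cells and 25.4, 20.6 and 17.3 CPM after maltonis, and the groups overlapped. Each maltonis library was higher than the n.t. library of the same number, with log2 differences of 0.37 for batch A and 0.38 for batch B. The log2 fold change was 0.38 with a 95% interval from −0.03 to 0.78 (adjusted p = 0.0845), which includes no change. With batch as a covariate it passed, at 0.37 (adjusted p = 0.00649).

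The ratio between C/EBP genes within a library does not depend on scaling, and 6 such ratios were compared. CEBPA exceeded CEBPB by 3.91, 3.92 and 4.09 on the log2 scale of counts in n.t. replicates 1, 2 and 3 and by 2.53, 2.64 and 2.77 after maltonis, a difference of −1.33. CEBPB over CEBPE rose by 1.32 and CEBPB over CEBPD by 0.97, from −2.33, −2.40 and −2.44 to −1.45, −1.36 and −1.44. CEBPA over CEBPD changed by −0.35 and CEBPD over CEBPE by 0.35, and none of these 5 ratios overlapped between the groups. For each of them, the two-sided exact permutation test returned p = 0.1, the lowest possible with groups of 3, and 0.12 after adjustment over the 6 ratios, so none could pass 0.05. CEBPA over CEBPE was 1.10, 1.01 and 1.03 in n.t. and 1.12, 1.03 and 1.00 in treated cells, a difference of −0.00422 (exact permutation p = 0.9), and the groups overlapped. Leaving out each library in turn gave differences between −0.0394 and 0.0218.

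Per length, the 4 C/EBP genes together summed to 223 ± 33.2 RPKM in n.t. and 127 ± 15.6 RPKM in maltonis-treated cells (SD, n = 3). CEBPA made up 43.3 ± 0.691% of this sum in n.t. cells and 39.2 ± 0.464% after maltonis, and CEBPE 35.5 ± 0.787% and 32.2 ± 1.76%. CEBPB rose from 3.72 ± 0.242% to 8.44 ± 0.604% of the sum, and CEBPD from 17.5 ± 0.600% to 20.2 ± 1.66%. Each share differed between groups without overlap of the libraries. Among the relatives fixed by name, CEBPG, a C/EBP protein with little activation capacity of its own, was not called (log2 fold change 0.13, adjusted p = 0.0745). DDIT3, the stress-induced C/EBP protein CHOP that can block other C/EBP proteins from binding DNA, rose from 24.9 ± 1.82 to 70.5 ± 1.03 CPM (SD, n = 3), with log2 fold change 1.50 (SE 0.0726, adjusted p = 3.43e-07).

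**Figure D3:**
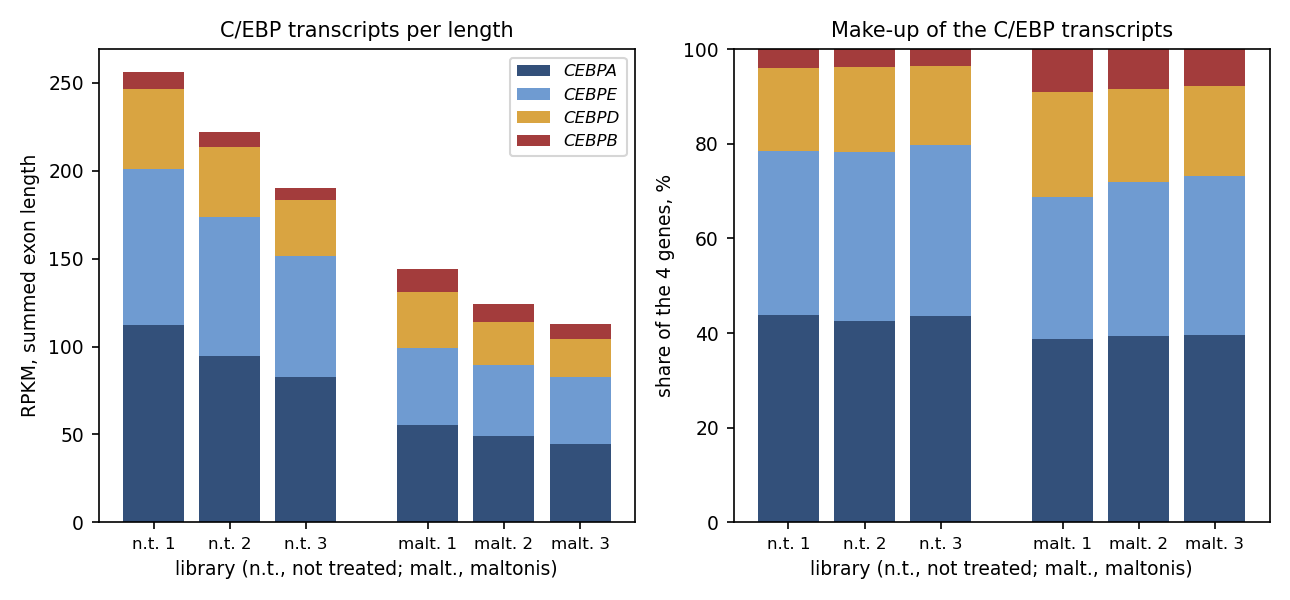
RPKM (summed exon length) of the C/EBP genes stacked in each library on the left, and the same values as a share of their sum on the right, for n.t. and maltonis-treated replicates 1 to 3. The total falls in treated libraries while the CEBPB share is between 7.82% and 9.02%, above the 3.45% to 3.92% of n.t. libraries.

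SPI1 (chr11:47354860-47378576, minus strand) encodes PU.1, the ETS factor needed for all myeloid cells. It was at 82.6, 72.5 and 71.7 CPM in n.t. cells and at 64.4, 42.7 and 40.8 CPM after maltonis, with no overlap and with treated replicate 1 well above the other treated libraries. The log2 fold change was −0.62 (SE 0.163), at an adjusted p = 0.00754, and batch A gave −0.36 against −0.79 from batch B. The call was lost without n.t. replicate 1, 2 or 3 (adjusted p = 0.0124, 0.0173 and 0.0120) and without maltonis replicate 2 or 3 (adjusted p = 0.0284 and 0.0242), as well as with total counts (0.0223) or the upper quartile (0.0144) as scaling. Its paralog SPIB, at 9 to 26 counts per library, was not called, and SPIC was at 0 in every library.

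RUNX1 (chr21:34787801-36004667, minus strand), which with its partner CBFβ starts the program of definitive blood cells and is a frequent target of leukemia translocations, read 65.8, 78.0 and 100.4 CPM in n.t. and 60.8, 60.3 and 52.0 CPM in maltonis-treated cells. The groups did not overlap, but the n.t. libraries spread more widely than the treated ones. Its log2 fold change of −0.50 (SE 0.143), at an adjusted p = 0.0117, fell just short of the threshold. Batch A gave −0.11 and batch B −0.66, and without n.t. replicate 1 the log2 fold change was −0.64 and passed (adjusted p = 0.000663). Without n.t. replicate 3 it was −0.33 and did not pass (adjusted p = 0.0204), and leaving out any of the other 4 libraries gave adjusted p-values between 0.0236 and 0.0502. It passed with DESeq2 (adjusted p = 0.00237), without a filter (0.00504) and with batch as a covariate (0.00317). The other RUNX genes were called lower: RUNX3 fell from 46.1 ± 12.8 to 20.4 ± 0.732 CPM (SD, n = 3), with log2 fold change −1.18 (batch A −0.60, batch B −1.40), and RUNX2 had a log2 fold change of −0.85. CBFB, the shared partner, had a log2 fold change of −0.39 (adjusted p = 0.000376).

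MYB (chr6:135181315-135219173, plus strand), the factor that keeps progenitors dividing and immature, showed the largest change of the 10. It was at 415, 471 and 448 CPM in n.t. cells and at 142, 141 and 146 CPM after maltonis, and no treated library came near an n.t. one. The log2 fold change was −1.64 (SE 0.0636), at an adjusted p = 1.25e-07, a 3.11-fold decrease at percentile 7.33 of all genes tested. Batch A gave −1.54 and batch B −1.68, and all 15 alternative fits kept the call. The related MYBL2, a cell cycle factor, was also lower (log2 fold change −0.90, adjusted p = 0.00252), though by −0.20 in batch A against −1.19 in batch B. MYBL1 went the other way, from 2.48 ± 0.108 to 9.68 ± 1.62 CPM (SD, n = 3), with log2 fold change 1.97 (adjusted p = 4.37e-06).

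GATA2 (chr3:128479427-128493185, minus strand), a zinc finger factor of stem and progenitor cells and of mast cells and basophils, fell 2.21-fold. The libraries read 63.4, 61.7 and 57.3 CPM in n.t. cells and 33.8, 24.4 and 24.5 CPM after maltonis, without overlap. The log2 fold change was −1.15 (SE 0.127), at an adjusted p = 4.48e-05, and batch A gave −0.91 and batch B −1.28. The mast cell and basophil marker HDC was called lower (log2 fold change −1.80), while MS4A2 and the eosinophil granule gene PRG2 were called higher (1.76 and 0.30). EPX and TPSAB1, the other tested markers of that list, were not called (0.11 and −0.26). Which cells of the line held GATA2 and these marker transcripts was not tested. GATA1, the erythroid and megakaryocyte member of the family, had 40, 140 and 129 counts in n.t. and 22, 20 and 28 in treated libraries, a log2 fold change of −1.96 (adjusted p = 0.000341) that batch A gave as −0.87 and batch B as −2.23. GATA4, GATA5 and GATA6 were among the listed genes not tested.

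GFI1 (chr1:92474762-92486876, minus strand) encodes a zinc finger repressor that restrains monocyte genes in favor of granulocytes. It was at 217, 184 and 178 CPM in n.t. and at 217, 198 and 195 CPM in treated cells, with overlapping groups. The log2 fold change of 0.08 had a 95% interval from −0.12 to 0.27 (adjusted p = 0.429), and batch A gave a log2 difference of 0.00063 and batch B of 0.12. None of the 15 alternative fits called it. Its paralog GFI1B, a factor of erythroid and megakaryocyte cells, was lower, from 5.27 ± 0.261 to 2.70 ± 0.417 CPM (SD, n = 3), with a log2 fold change of −0.99 (adjusted p = 0.000229). KDM1A, the histone demethylase recruited by both GFI1 proteins, fell from 317 ± 13.3 to 74.3 ± 1.20 CPM (SD, n = 3), with log2 fold change −2.09 (SE 0.0578, adjusted p = 3.00e-08). RCOR1, which bridges the repressor and the demethylase, changed less, with a log2 fold change of −0.28 (adjusted p = 0.00498).

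GFI1 has 3 RefSeq starts, and the 250 bases before the middle of them (chr1:92486100-92486349, GRCh38.p14, sense strand) are shown because they alone among the windows of 8 matched factors held letters of both a C/EBP and a RUNX site, in capitals.
GFI1: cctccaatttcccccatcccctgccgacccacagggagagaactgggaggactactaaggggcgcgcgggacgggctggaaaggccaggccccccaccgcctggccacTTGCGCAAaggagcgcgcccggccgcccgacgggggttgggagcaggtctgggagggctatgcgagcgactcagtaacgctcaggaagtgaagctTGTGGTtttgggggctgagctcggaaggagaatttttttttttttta
The C/EBP match is a palindrome that reads the same on both strands and has its first base at position −142 from the start, and TGTGGT at −47. Of 34788 windows, 9.05% held TTGCNNAA, and 3816 windows held TGTGGT. No window of SPI1 or CEBPD was searched.

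KLF4 (chr9:107484852-107490482, minus strand), a zinc finger factor of monocyte differentiation and a brake on proliferation, was the single factor called higher. It was at 10.4, 9.58 and 9.65 CPM in n.t. cells and at 16.1, 14.5 and 15.7 CPM after maltonis, with tight groups and no overlap. The log2 fold change was 0.64 (SE 0.0873), 1.56-fold, at an adjusted p = 0.000159, and batch A gave 0.63 and batch B 0.64, and all 15 alternative fits kept the call. Of 16 other KLF genes, 12 were tested, 2 were higher, 2 lower and 8 not called, with a median log2 fold change of 0.20. That is 16.7% in each direction, against 31.9% higher and 32.1% lower among all genes tested. KLF10, a gene induced by TGF-β, rose from 42.2 ± 0.930 to 86.9 ± 2.05 CPM (SD, n = 3), with log2 fold change 1.04 (adjusted p = 7.24e-07), and KLF7 had a log2 fold change of 0.70 whose adjusted p = 0.00281 became 0.0171, 0.0135 and 0.0182 without n.t. replicate 2, n.t. replicate 3 and maltonis replicate 2. KLF11 fell from 4.17 ± 0.837 to 0.823 ± 0.0895 CPM (SD, n = 3), with log2 fold change −2.33 (adjusted p = 1.05e-05), and KLF3 had a log2 fold change of −0.78.

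Of 17 partners and regulators of the factors, 16 were tested, with 3 higher, 9 lower and 4 not called and a median log2 fold change of −0.37. Of all genes tested, 31.9% were higher and 32.1% lower. ID2 and ID1, inhibitors of helix-loop-helix factors, rose, ID2 from 6.90 ± 0.482 to 40.3 ± 0.964 CPM (SD, n = 3) with a log2 fold change of 2.55 and ID1 with 2.21. TAL1, the helix-loop-helix factor of the GATA complexes, fell from 12, 30 and 17 counts to 1, 4 and 1, and the pooled counts gave a 9.04-fold decrease with an exact binomial 95% interval from 3.92 to 25.6 that covers counting error only. KDM1A, described above, completed the 4 largest changes. Among 29 other hematopoietic transcription factors, 25 were tested, with 15 lower, 4 higher and 6 not called and a median of −0.56, beside the same 32.1% lower and 31.9% higher among all genes. NR4A1, an orphan nuclear receptor induced early by many stimuli, fell with a log2 fold change of −2.35. PRDM1, the repressor BLIMP-1, rose by 1.93 on the log2 scale, and ERG, an ETS factor of stem cells and endothelium, rose from 1, 6 and 10 counts to 52, 89 and 89, 14.7-fold with a counting interval from 8.99 to 25.7.

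Lymphoid lineage factors were sparse, and 4 of 12 were tested. BCL11B, a T cell factor, fell by 2.67 on the log2 scale, from 6.35 ± 0.314 to 1.02 ± 0.412 CPM (SD, n = 3). The T cell markers CD3D, CD3G and CD8A, all 3 that were tested of 5, were called lower too (log2 fold changes −1.51, −2.35 and −1.13). Of all genes tested, 32.1% were lower. CD3G held few counts, 15, 19 and 17 in n.t. and 1, 5 and 3 in treated libraries. TRAT1 was at 0, and the sum of the 5 T cell markers went from between 49.5 and 52.3 CPM to between 18.0 and 18.7 CPM. All libraries are of the NB4 line, and which of its cells held BCL11B and these marker transcripts was not tested. PAX5 and EBF1, B cell factors, rose with log2 fold changes of 2.36 and 2.23 from low levels, PAX5 from 3, 5 and 5 counts to 13, 25 and 25, a 5.27-fold rise with a counting interval from 2.87 to 10.4. The B cell markers CD79A and CD79B were called lower in the same libraries (log2 fold changes −1.32 and −1.05), and MS4A1 was at 0. The sum of the 5 B cell markers, PAX5 included, was 19.3 to 29.2 CPM in n.t. and 10.9 to 13.2 CPM in treated cells.

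The list of myeloid target genes holds 27 genes fixed by name, and their regulation by the 10 factors was not tested. Of these, 19 were tested, and 12 were higher, 3 lower and 4 not called, with a median log2 fold change of 0.97, against 31.9% higher, 32.1% lower and a median of 0.01 over all genes tested. Among those called higher, ELANE, S100A8 and PGLYRP1 met the count filter only through their treated libraries. CAMP, with 7, 5 and 5 counts in n.t. and 1, 0 and 0 in treated libraries, was not tested. The counts and the median of this list therefore depend on the filter and are a description only. CTSG, the cathepsin G of primary granules, rose from 109 ± 5.34 to 553 ± 19.9 CPM (SD, n = 3), with log2 fold change 2.34 (adjusted p = 2.77e-08). S100A8, a subunit of calprotectin, had a log2 fold change of 3.84, and the neutrophil elastase gene ELANE went from 3, 6 and 2 counts to 406, 565 and 409. MPO was lower, from 14612 ± 1491 to 7425 ± 127 CPM (SD, n = 3), and CSF3R, the receptor of G-CSF and a target of C/EBPα, was called higher with a log2 fold change of 0.37 (adjusted p = 0.00766). ITGB2 and MMP9 were the other targets called lower, with log2 fold changes of −1.48 and −1.32. LTF, CAMP, LCN2 and MMP8 had too few counts to be tested. CSF1R, the monocyte growth factor receptor under PU.1 and RUNX1, was not called (log2 fold change 0.28, adjusted p = 0.323), and batch A gave 1.12 against 0.05 from batch B. Of 7 progenitor genes, 5 were tested: BCL2, FLT3 and CDK6 fell with log2 fold changes of −1.43, −1.26 and −1.11, SOX4 fell by 1.00, and KIT rose by 2.62 from 0.535 ± 0.131 to 3.22 ± 0.391 CPM (SD, n = 3).

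**Figure D4:**
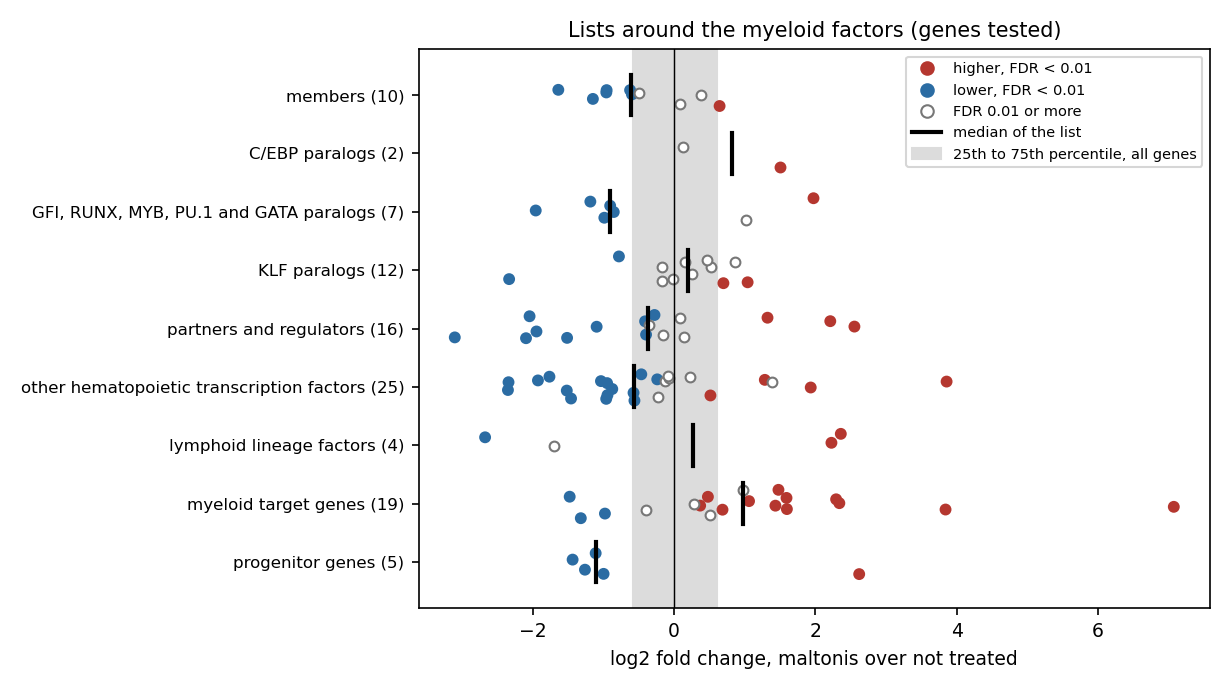
Log2 fold change of every tested gene in the lists around the myeloid factors, in red or blue where it passed an FDR of 0.01 and open where it did not, with the list median as a bar, the number tested in parentheses and the 25th to 75th percentile of all genes in grey. The median is −0.61 for the 10 factors and 0.97 for the myeloid target genes, which include ELANE at 7.07.

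With 75 candidates per factor, the other factors and the tested transcription factors of these lists, the closest pattern over the 6 libraries, by Pearson correlation of log2 CPM, was that of HOXA10 for MYB (r = 0.997), LYL1 for CEBPE (0.997), CEBPE for CEBPA (0.996), VDR for GATA2 (0.99) and KLF10 for KLF4 (0.99). It was LDB1 for CEBPD (0.98), RCOR1 for RUNX1 (0.97), ZFPM1 for SPI1 (0.96), KLF5 for CEBPB (0.89) and CEBPB for GFI1 (0.87). These values are descriptions over 6 libraries that share the same 2 groups and batches.

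Replicate 1, the batch A library, was the highest of its group in both groups for 8 of the 10 factors, MYB and RUNX1 being the exceptions, and for 24.7% of all genes tested. The direction of all 10 factors was shared by batches A and B, with 7 lower and 3 higher, although batch A holds a single library per group and gives no test. Strand use in counting is not given in the sources used here, and antisense genes overlap exons of CEBPA by 659 and 482 bases, CEBPB by 231 bases and MYB by 103 bases, so reads of these genes and of their antisense partners cannot be told apart.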

How the data were processed

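RNA was sequenced from NB4 cells in 3 not treated and 3 maltonis-treated libraries prepared with a stranded total RNA kit. The authors deposited whole-number counts per gene symbol, made with HTSeq. The submitters' processing notes also name TopHat, Bowtie2 and hg19, while versions, annotation and strand setting are not given in the sources used here. The tables hold no rows of unassigned reads. P-values measure the spread between these libraries.

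The comparison used edgeR 4.0.16 under R 4.3.3, with filterByExpr, TMM scaling and a quasi-likelihood fit to treatment alone over the 6 libraries, and Benjamini-Hochberg adjustment over 13209 genes. All adjusted p-values come from this test unless another is named. Standard errors and 95% intervals were derived from the F statistic. CPM used TMM library sizes, and batch differences used log2 CPM with a prior count of 2. Lengths and positions are from GENCODE 29 (GRCh38), not the build of the counts; 21658 of 23368 symbols had a length. Ratios used counts plus 0.5. On simulated counts for this comparison, the test recovered 181 of 197 changed genes among 13095, with 6 calls among 12898 unchanged genes. The simulated counts were drawn from the fitted dispersions, with few changed genes and no batch, while 64% of the real genes were called. These rates therefore need not hold for the real libraries. Replicates differed by more than sampling noise (chi-square per degree of freedom 4.15 to 33.1).

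The factors and lists were chosen with earlier results of these data known. Named genes were the 10 factors, up to 4 genes per list with the largest change among those called without overlap, and the nearest factor of each; CEBPG, RUNX2, CBFB, MYBL2, RCOR1, MPO, CSF3R, CSF1R, SOX4, SPIB and the marker genes were added after their values were seen. Some genes that the rule names are not reported here. Alternatives covered scaling, DESeq2 1.42.0, filters, the replicate block, batch, each library left out, pseudocount and length.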

Additional observations from a re-analysis of the deposited data

How the results depend on the processing

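MYB, GATA2, CEBPA, CEBPE and KLF4 kept direction and call in all 15 alternative fits, and GFI1 was called in none. CEBPD and SPI1 were each called in 8 and RUNX1 in 6 of 15. The number of lower factors was 6, and between 4 and 7 over the fits, with 4 to 6 when a library was left out. With a 2.5-fold criterion it was 1, and the number of higher factors 0 in place of 1. The number of higher factors was 1 when any library was left out. With the replicate block, 2 factors were higher and 7 lower, CEBPB then passing (log2 fold change 0.37, adjusted p = 0.00107) and RUNX1 as well (−0.48, adjusted p = 0.00480). With batch as a covariate, 2 were higher, CEBPB again (adjusted p = 0.00649). The labels do not say what a replicate number shares, deviations of same-numbered libraries correlated by 0.301, 0.0852 and 0.161, and 4 of 6 libraries correlated best with their own number. Pairing the C/EBP ratios by replicate number leaves each mean difference unchanged by arithmetic. The block therefore could not alter the −0.00422 of CEBPA over CEBPE or the direction of the other 5 ratios. The near-zero difference of CEBPA over CEBPE ranged from −0.0394 to 0.0218 when each library was left out, changing sign without n.t. replicate 1, maltonis replicate 2 or maltonis replicate 3. Scaling by total counts moved the median log2 fold change of all genes from 0.01 to 0.13 and the upper quartile to 0.10. Relative to that median no factor changed direction under either. Of the 28 listed genes that the rule chose, only KLF7 lost its call in any fit, in 3 that left out a library, while TAL1 and PAX5 were not tested with the filter of 1 CPM. Depth does not limit these factors, each of which held at least 195 counts in every library, but 3 libraries per group cannot give an exact permutation p under 0.1.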
